A study of Homo sapiens with 10 samples.

Results

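Fatty acid synthesis and lipoprotein lipase are described here through 10 genes out of the 23228 that the count table lists. They were chosen by symbol, as the rows named FASN, ACACA, ACLY, SCD, ELOVL6, FADS1, FADS2, ME1, ACSS2 and LPL, and all 10 passed the filter on low counts that left 14761 genes to test. RNA was counted in cells that the labels name RD, a line grown from a human rhabdomyosarcoma, a tumour of the muscle lineage. Small interfering RNAs (siRNAs) were given at 10 nM, and cells were collected at 48 h after NRAS siRNA 1, NRAS siRNA 2 or a nonspecific siRNA. In the other arm, cells were collected at 24 h after 300 nM of the ERK inhibitor SCH772984 or after its solvent DMSO. Each of the 5 groups had 2 libraries from this 1 line. Nothing in the labels tells whether the 2 are separate cultures, and the spread behind every p-value may therefore be technical. Both siRNA comparisons use the same 2 nonspecific siRNA libraries, and the arms differ in time as well as in agent.

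Cells make fatty acids from citrate. ACLY splits citrate into acetyl-CoA, ACSS2 makes acetyl-CoA from acetate, ACACA turns acetyl-CoA into malonyl-CoA, FASN joins these units into palmitate, and ME1 is a source of the NADPH that the chain consumes. ELOVL6 lengthens the product, SCD puts in the first double bond, and FADS1 and FADS2 desaturate polyunsaturated chains. Much of this set is switched on by SREBP factors, the products of SREBF1 and SREBF2. LPL is a secreted enzyme that frees fatty acids from circulating lipoproteins, and so serves uptake where the other genes serve synthesis.

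The libraries held 23224063 to 30768970 gene counts, and values below are CPM, counts scaled to a common library size after TMM correction. NRAS was at 52.3 ± 0.165 and 49.5 ± 2.14 CPM after NRAS siRNA 1 and 2, against 246 ± 36.8 CPM after the nonspecific siRNA (SD, n = 2 each). DUSP6, a phosphatase that ERK signalling induces, was at 11.4 ± 3.02 CPM with the ERK inhibitor and 278 ± 18.997 CPM with DMSO. After NRAS siRNA 1 and 2 DUSP6 was at 98.25 ± 2.26 and 105 ± 5.03 CPM (SD, n = 2 each). After the nonspecific siRNA it was at 239 ± 46.6 CPM, so it fell less with the siRNAs than with the inhibitor. Of 12 muscle lineage markers 3 or 4 reached 1 CPM in a group. The myogenic factors MYOD1 and MYOG, which define the lineage, had 0 to 5 counts in any library, and MYF5 had 0. The label names a line of the muscle lineage while these factors were near absent, and the identity of the cells was not tested. The structural muscle gene DES lay between 19.7 and 34.1 CPM. Fat cell markers summed to 1.74 to 1.98 CPM with the ERK inhibitor and to 0.757 to 1.41 CPM in the other libraries. Macrophage markers summed to 4.19 to 8.28 CPM, endothelial markers to 0.360 to 0.766 CPM and epithelial markers, mostly KRT18, to 117 to 365 CPM. In bulk RNA, fewer cells of a type and less RNA per cell cannot be told apart.

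For promoter sequence, RefSeq windows of 250 bases before to 50 after a start site (GRCh38.p14) were matched for 8 of the 10 genes, 13 windows in all. FASN and LPL had none in the table. Windows of SCD and ME1 are shown because both genes rose with the ERK inhibitor and each has a single window. Both read 5′ to 3′ on the strand of the gene, and capitals mark CCAAT, the box bound by NF-Y, a partner of SREBP at many lipid gene promoters. SCD lies on the plus strand at chr10:100346983-100347282 and ME1 on the minus strand at chr6:83431002-83431301.
SCD: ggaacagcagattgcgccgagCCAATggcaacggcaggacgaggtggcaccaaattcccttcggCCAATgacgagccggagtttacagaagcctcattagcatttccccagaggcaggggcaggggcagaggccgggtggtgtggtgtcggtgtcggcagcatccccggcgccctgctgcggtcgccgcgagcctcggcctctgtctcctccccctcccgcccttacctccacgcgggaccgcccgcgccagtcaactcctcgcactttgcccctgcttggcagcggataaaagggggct
ME1: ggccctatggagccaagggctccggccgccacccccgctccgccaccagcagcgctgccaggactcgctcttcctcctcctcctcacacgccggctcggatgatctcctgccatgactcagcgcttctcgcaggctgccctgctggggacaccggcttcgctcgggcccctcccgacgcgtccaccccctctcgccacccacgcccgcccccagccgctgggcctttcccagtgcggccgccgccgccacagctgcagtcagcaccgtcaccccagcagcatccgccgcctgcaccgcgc
The SCD window held 2 CCAAT boxes, with first bases at -229 and -186 from the start site, and the ME1 window held 0. Searched on both strands, CCAAT was in 7 of 13 windows, against 34.6% of all 35116 windows. By gene, 5 of the 8 had it in at least 1 window, a count with no matching share over all genes. The 2 ACLY windows overlap and hold the same 2 boxes, so the 13 windows are not separate. The SREBP site TCACNCCAC was in 0 of the 13 windows and in 1.13% of all windows. The E-box CACGTG was in 0 of the 13 and in 7.26% of all. A match is a run of letters and not a bound site, and no match says only that these letters are not in this window.

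Per kilobase of transcript, the order of the 10 genes differed between groups. With the ERK inhibitor SCD was highest at 211 ± 6.85 CPM per kilobase, followed by FASN at 143 ± 32.9 and ACLY at 142 ± 7.80, which did not differ beyond their spread. Below them came FADS2 at 71.2 ± 1.21, FADS1 at 62.0 ± 0.875 and ACACA at 36.3 ± 0.726 CPM per kilobase. LPL was last at 3.17 ± 0.285 CPM per kilobase. With DMSO the order was ACLY at 142 ± 7.40, SCD at 125 ± 3.02 and FASN at 116 ± 14.6, with SCD and FASN within their spread. FADS1 at 50.8 ± 0.794 then stood above FADS2 at 34.0 ± 3.03, and LPL at 11.6 ± 1.40 was near ME1 and ACSS2, at 12.8 ± 0.338 and 12.9 ± 0.620 CPM per kilobase. After the nonspecific siRNA, FASN was at 119 ± 19.7 CPM per kilobase beside SCD at 122 ± 13.2. After NRAS siRNA 1 it was at 67.2 ± 5.30 against 151 ± 19.8 for SCD, and after NRAS siRNA 2 FASN was at 59.8 ± 10.9997 against 138 ± 14.1 for SCD. ELOVL6 was at 5.02 to 6.83 CPM per kilobase on average in all 5 groups.

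**Figure D1:**
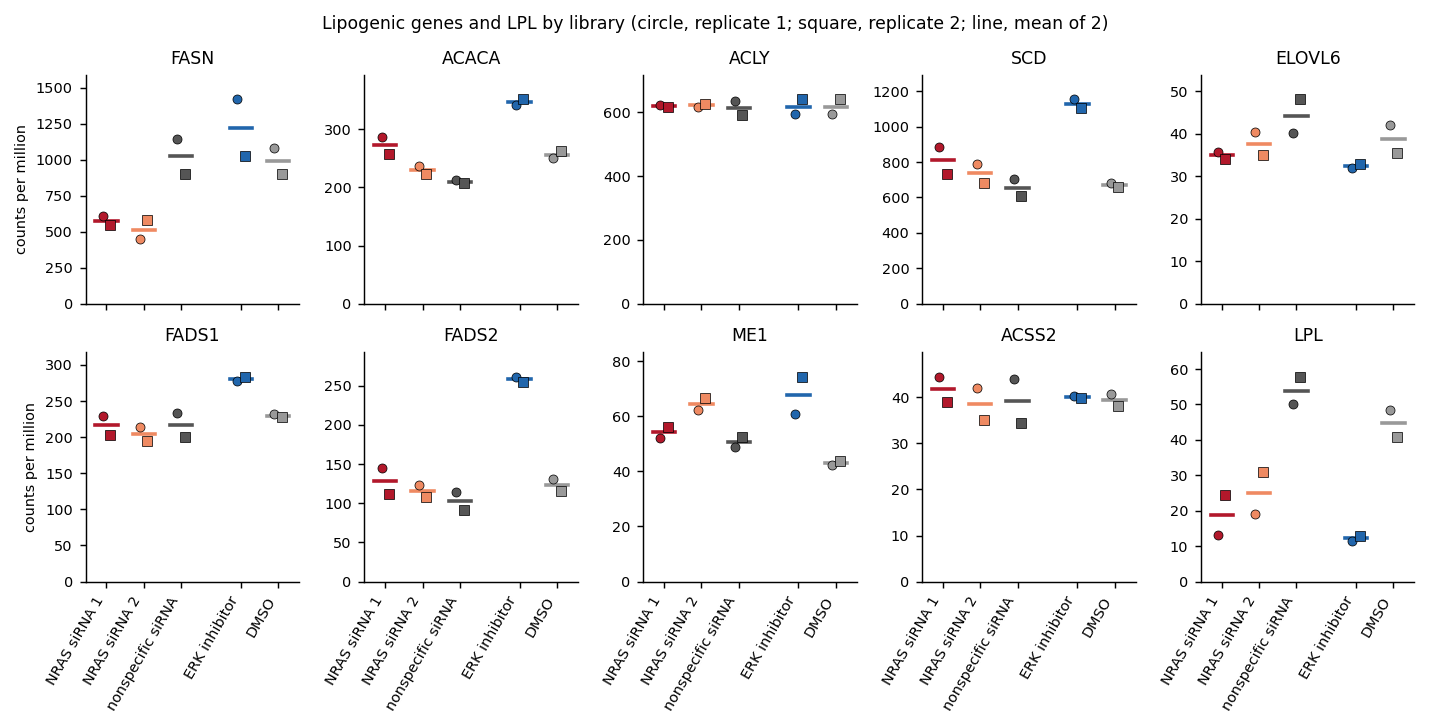
CPM (vertical axis, from 0) of the 10 genes in every library, by group, with circles for replicate 1, squares for replicate 2 and a line at the mean of 2. FASN stands lower after both NRAS siRNAs, LPL stands lower in all 3 treated groups, and SCD, FADS2, ACACA and ME1 stand higher with the ERK inhibitor.

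The first question was what loss of NRAS did to the set. FASN and LPL were the members called on the mean of both siRNAs. Each fell, FASN to 53.1% of the nonspecific siRNA level and LPL further, and no gene of the set rose past the threshold. That was 2 of 10 members past an adjusted p of 0.05 in edgeR's quasi-likelihood test, against 7.95% of all genes tested (2.97% higher and 4.99% lower). The median log2 difference of the 10 was 0.03, beside -0.01 over all genes.

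FASN, the synthase itself, had 608 and 543 CPM after NRAS siRNA 1, 446 and 579 CPM after NRAS siRNA 2, and 1142 and 904 CPM after the nonspecific siRNA. All 4 knockdown libraries lay below both nonspecific libraries. On the mean of both siRNAs the log2 difference was -0.91 (SE 0.15, 95% interval -1.25 to -0.57, edgeR adjusted p = 0.0107). For NRAS siRNA 2 alone it was -0.997 (SE 0.18, edgeR adjusted p = 0.0172). For NRAS siRNA 1 alone it was -0.83 (SE 0.18) with an edgeR adjusted p of 0.0502, which missed the threshold; it passed in 4 of the 7 other settings run. Without nonspecific siRNA replicate 1, the higher of that pair, the mean difference was -0.71 (edgeR adjusted p = 0.0933). NRAS siRNA 2 alone then gave -0.80 (edgeR adjusted p = 0.0898), and without its own replicate 1, the lowest FASN library, -0.82 (edgeR adjusted p = 0.189).

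FASN has the most GC-rich transcript of the 10, and GC content moved with these differences. Its share of G and C bases was 65.3%, above that of 96.4% of the 14030 tested genes with a value. The 560 tested genes over 65% GC had a median log2 difference of -0.31 on the mean of both siRNAs, and 78.9% of them were below 0. With the ERK inhibitor the same 560 genes had a median of 0.50. A model that takes each library's trend with GC content out put FASN at -0.66 (SE 0.09, edgeR adjusted p = 0.00251) for the mean of both siRNAs, so the fall was smaller but still called. That model was added after seeing the data, and it also takes out any true difference that goes with GC content. Whether the trend came from the cells or from the libraries was not tested.

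**Figure D2:**
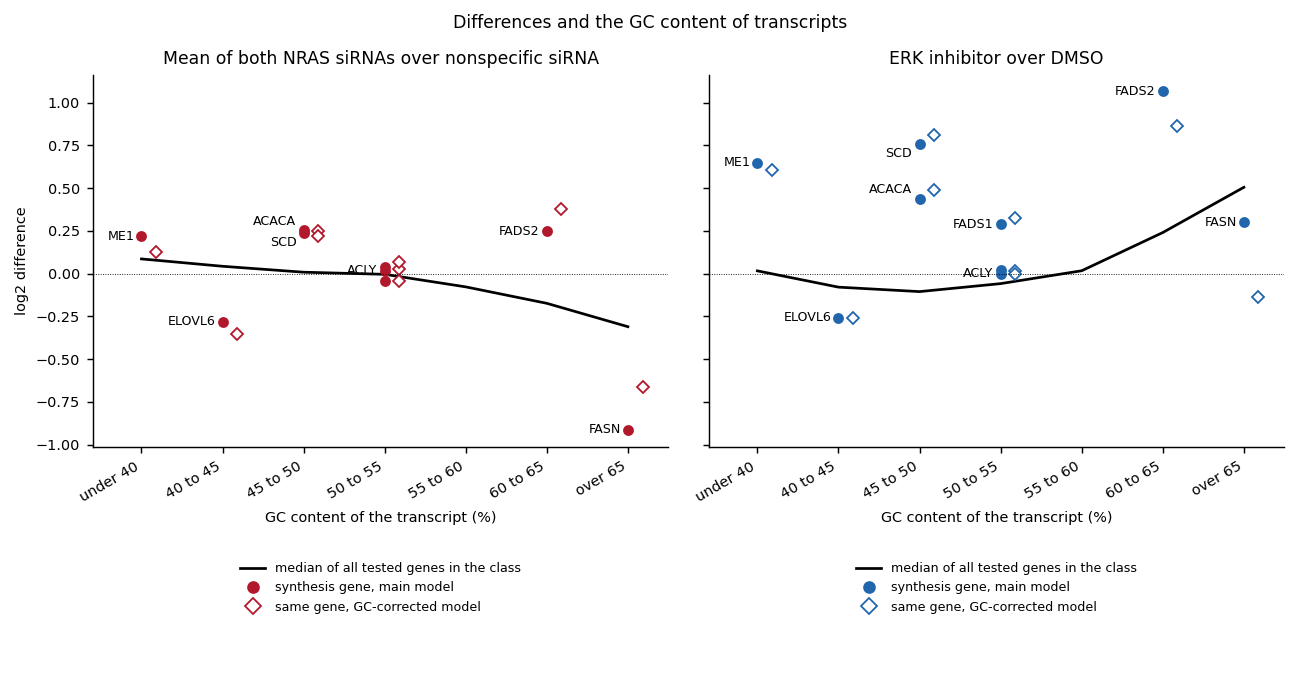
Log2 differences (vertical axis) against the GC content of the transcript in classes (horizontal axis, %), for the mean of both NRAS siRNAs on the left and the ERK inhibitor on the right. The line is the median of all tested genes in a class, filled circles are the 9 synthesis genes in the main model and open diamonds the same genes in the GC-corrected model; the line falls to -0.31 over 65% GC on the left and climbs to 0.50 on the right, and FASN moves most between the models.

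LPL had 13.0 and 24.4 CPM after NRAS siRNA 1, 18.9 and 30.8 CPM after NRAS siRNA 2, and 50.03 and 57.8 CPM after the nonspecific siRNA. The 4 knockdown libraries were all below both nonspecific libraries, although the 2 libraries of each siRNA differed widely. The mean difference was -1.32 on the log2 scale (SE 0.23, 95% interval -1.84 to -0.81, edgeR adjusted p = 0.0124). NRAS siRNA 1 alone gave -1.53 (SE 0.28, edgeR adjusted p = 0.0270) and NRAS siRNA 2 alone -1.12 (SE 0.28, edgeR adjusted p = 0.0430). These calls rest on few libraries, and neither siRNA's own call held in every fit without 1 library. In those fits NRAS siRNA 1 alone gave -2.05 to -1.14 and NRAS siRNA 2 alone -1.51 to -0.81. For NRAS siRNA 2 the call was lost even without a DMSO or ERK inhibitor library, which that comparison does not use. The mean difference was -1.40 without nonspecific siRNA replicate 1 and -1.21 without replicate 2, with edgeR adjusted p of 0.0640 and 0.0613. With NRAS siRNA 1 replicate 1 left out, its own difference was -1.14 (edgeR adjusted p = 0.175), and without NRAS siRNA 2 replicate 1 that siRNA gave -0.81 (edgeR adjusted p = 0.354). Macrophage markers, a cell type that also makes LPL, summed to 4.64 and 6.20 CPM after NRAS siRNA 1, 4.19 and 5.41 CPM after NRAS siRNA 2, and 7.62 and 8.28 CPM after the nonspecific siRNA, given as the lower and the higher library; 2 of the 6 markers reached 1 CPM, and their part in the result was not tested. LPL transcripts are 43.7% GC, and the GC-corrected mean difference was -1.36 (edgeR adjusted p = 0.00698).

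The remaining 8 genes of synthesis did not pass the test after NRAS siRNA. ACACA, the carboxylase that commits carbon to fatty acids, had 287 and 258 CPM after NRAS siRNA 1, 237 and 223 CPM after NRAS siRNA 2, and 212 and 208 CPM after the nonspecific siRNA. Both siRNAs gave values above both nonspecific libraries, but the mean difference of 0.25 (SE 0.07) had an edgeR adjusted p of 0.0593. The DMSO libraries, at 249.9 and 262 CPM, were above both NRAS siRNA 2 libraries. For ACACA the nonspecific siRNA minus DMSO gave -0.29 (SE 0.08, edgeR adjusted p = 0.188). NRAS siRNA 1 alone gave 0.38 (SE 0.08, edgeR adjusted p = 0.0506). The mean difference of ACACA passed in 3 of the 7 other settings, among them the GC-corrected model (0.25, edgeR adjusted p = 0.0420), and that of NRAS siRNA 1 in 5 of the 7. SCD, the delta-9 desaturase, had 886 and 736 CPM after NRAS siRNA 1, 791 and 684 CPM after NRAS siRNA 2, and 706 and 606 CPM after the nonspecific siRNA. Its mean difference was 0.24 (SE 0.10, 95% interval 0.01 to 0.46, edgeR adjusted p = 0.167), and the NRAS siRNA 2 libraries overlapped the controls. ELOVL6 had 35.7 and 34.0 CPM after NRAS siRNA 1, 40.4 and 35.0 CPM after NRAS siRNA 2, and 40.1 and 48.1 CPM after the nonspecific siRNA. Its mean difference of -0.28 (SE 0.11) had an edgeR adjusted p of 0.139, and in the GC-corrected model -0.35 passed (edgeR adjusted p = 0.0213).

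FADS2 and ME1 were at 0.25 (SE 0.13) and 0.22 (SE 0.10) on the log2 scale for the mean of both siRNAs, with edgeR adjusted p of 0.241 and 0.188. ACLY, which opens the pathway, stayed between 593 and 641 CPM in all 10 libraries. Its mean difference was 0.02, with a 95% interval of -0.14 to 0.17. FADS1 gave -0.04 (95% interval -0.23 to 0.15) and ACSS2 0.04 (95% interval -0.23 to 0.31). These intervals do not show that the genes were unaffected, only how large a change could have been missed.

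By each siRNA alone, 1 of 10 members was called for NRAS siRNA 1 (2.07% of all genes tested, 0.894% higher and 1.17% lower) and 2 of 10 for NRAS siRNA 2 (6.43%, with 2.59% higher and 3.84% lower). Set against each other, the siRNAs gave 0 of 10 members in edgeR, against 0.427% of all genes, with 2 members at an unadjusted p under 0.05 and 0 in DESeq2. The nonspecific siRNA set against DMSO, which differ in time and handling, gave 0 of 10 members in edgeR, against 0.379% of all genes. There 1 member had an unadjusted p under 0.05 in edgeR, and DESeq2 called 0. The share of all genes at the unadjusted rule is not given here.

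The second question was what ERK inhibition did. Here 4 genes of synthesis rose, FADS2 to 209%, SCD to 169%, ME1 to 157% and ACACA to 135% of the DMSO level, and LPL fell to 27.3%. That was 5 of 10 members past the threshold in edgeR's test, against 28% of all genes tested (13.2% higher and 14.8% lower). The median log2 difference of the 10 was 0.29, beside 0.00 over all genes. These 5 calls held in each of the other 7 settings run and in each of the 10 fits that left out 1 library.

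FADS2, the delta-6 desaturase, had 261 and 255 CPM with the ERK inhibitor and 131 and 116 CPM with DMSO. The inhibitor libraries were far above both controls and close to each other. The log2 difference was 1.07 (SE 0.14, 95% interval 0.74 to 1.39, edgeR adjusted p = 0.000666). FADS2 transcripts are 60.7% GC, in a class of 1666 genes with a median of 0.24 for this comparison, and the GC-corrected difference was 0.87 (edgeR adjusted p = 0.000950). The neighbouring delta-5 desaturase FADS1 had 278 and 284 CPM with the inhibitor and 232 and 227 CPM with DMSO. These groups did not overlap, but its difference of 0.29 (SE 0.10) had an edgeR adjusted p of 0.0543; it passed in 6 of the 7 other settings, with 0.33 and an edgeR adjusted p of 0.0241 after GC correction. FADS1 and FADS2 overlap each other in the RefSeq annotation of a later build, and the strand setting used in counting is not given, so reads of a shared stretch cannot be assigned to one of them with certainty.

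SCD had 1156 and 1104 CPM with the ERK inhibitor and 680.5 and 658 CPM with DMSO. The groups stood well apart, and SCD became the most abundant of the 10 genes per kilobase. Its difference was 0.76 (SE 0.12, 95% interval 0.50 to 1.01, edgeR adjusted p = 0.00126). ME1, the cytosolic malic enzyme, had 61.0 and 74.4 CPM with the inhibitor and 42.3 and 43.9 CPM with DMSO. Both inhibitor libraries were above both controls, although they differed from each other. The log2 difference was 0.65 (SE 0.11, edgeR adjusted p = 0.00243). ACACA had 342 and 352 CPM with the inhibitor and 249.9 and 262 CPM with DMSO, a difference of 0.44 (SE 0.08, edgeR adjusted p = 0.00399) with no overlap. SCD, ME1 and ACACA transcripts are 47.1%, 39.5% and 48.7% GC, in GC classes with medians of -0.11, 0.02 and -0.11, and their GC-corrected differences were 0.81, 0.61 and 0.49.

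FASN did not pass with the ERK inhibitor. It had 1420.3 and 1022 CPM with the inhibitor and 1080.0 and 903 CPM with DMSO, so the groups overlapped. Its difference was 0.30 (SE 0.18, 95% interval -0.10 to 0.71, edgeR adjusted p = 0.244). Without ERK inhibitor replicate 1 it was 0.04, without replicate 2 it was 0.52, and after GC correction it was -0.13, none of them past the threshold. ACLY gave -0.00 (95% interval -0.18 to 0.18) and ACSS2 0.02 (95% interval -0.29 to 0.33). ELOVL6 had 31.9996 and 32.8 CPM with the inhibitor and 42.1 and 35.4 CPM with DMSO, a difference of -0.26 (SE 0.13, edgeR adjusted p = 0.166).

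LPL had 11.4 and 13.0 CPM with the ERK inhibitor and 48.5 and 40.9 CPM with DMSO. These were 300 and 380 counts against 1103 and 1079 counts, far above the 3 counts taken as the floor. The groups did not overlap, and the log2 difference was -1.87 (SE 0.29, 95% interval -2.52 to -1.23, edgeR adjusted p = 0.00138). Macrophage markers summed to 4.37 and 4.45 CPM with the inhibitor and 6.38 and 7.10 CPM with DMSO, and fat cell markers, another cell type that makes LPL, to 1.74 and 1.98 CPM with the inhibitor and 1.33 and 1.41 CPM with DMSO, with ADIPOQ at 0 to 2 counts; their part in the result was not tested. LPL was the member with the largest difference in this comparison and in the mean siRNA comparison.

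**Figure D3:**
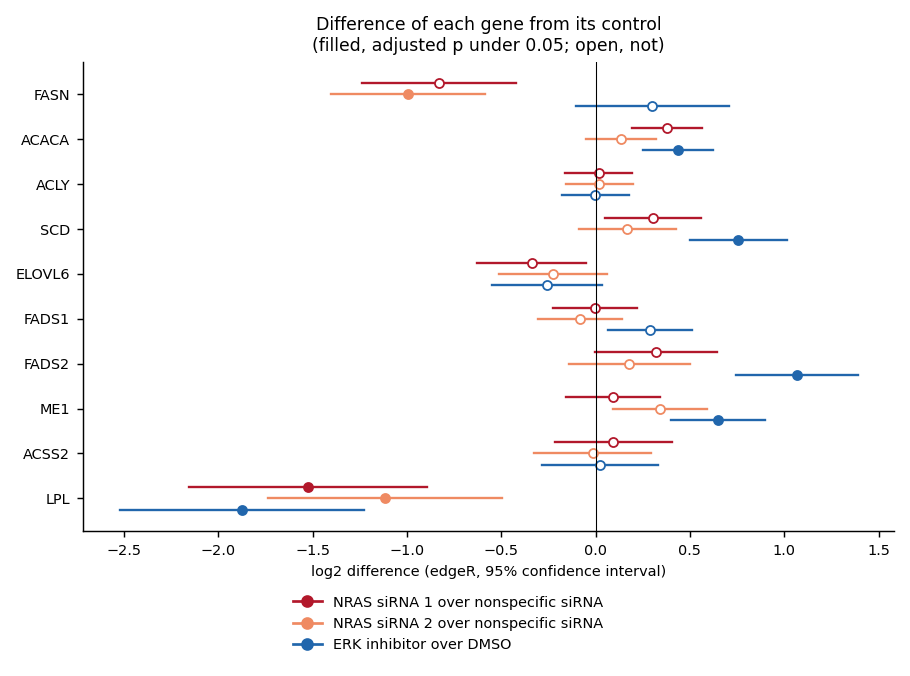
Log2 difference of each gene from its own control (horizontal axis), with 95% confidence intervals from edgeR, for NRAS siRNA 1, NRAS siRNA 2 and the ERK inhibitor. Filled points passed an adjusted p of 0.05; LPL is left of 0 with all 3 agents, FASN is left of 0 with the siRNAs at -0.83 and -0.997 and at 0.30 with the inhibitor, and FADS2, SCD, ME1 and ACACA are filled to the right of 0 with the inhibitor.

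Whether the 2 arms differed was tested as the mean NRAS siRNA response minus the ERK inhibitor response. It called 2 of 10 members, against 7.3% of all genes tested (2.73% higher and 4.57% lower). FASN gave -1.21 (SE 0.24, 95% interval -1.75 to -0.68, edgeR adjusted p = 0.0182) and FADS2 -0.82 (SE 0.19, 95% interval -1.24 to -0.40, edgeR adjusted p = 0.0321). GC content moved with this difference: the 560 genes over 65% GC had a median of -0.80, and 95.5% of them were below 0. After GC correction FASN was at -0.53 (SE 0.14, edgeR adjusted p = 0.0505) and FADS2 at -0.49 (SE 0.17, edgeR adjusted p = 0.133), so neither call held. SCD gave -0.52 (SE 0.15, edgeR adjusted p = 0.0680), and passed in 4 of the 6 other settings, among them GC correction (-0.59, edgeR adjusted p = 0.0458). The FASN call was also lost without nonspecific siRNA replicate 1 (-1.04), DMSO replicate 2 (-1.10) or ERK inhibitor replicate 1 (-0.96), with edgeR adjusted p of 0.0615 to 0.0824. The FADS2 call was lost without nonspecific siRNA replicate 1, NRAS siRNA 2 replicate 2, or any 1 of the DMSO or ERK inhibitor libraries, which gave -0.65 to -0.91. LPL gave 0.55 (SE 0.37, 95% interval -0.28 to 1.38, edgeR adjusted p = 0.407), so a difference between the arms was not detectable.

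Ratios of counts within 1 library need no scaling between libraries, but a library's trend with GC content stays in them where the 2 genes differ in it. FASN and SCD transcripts are 65.3% and 47.1% GC, and those of FADS2 and FADS1 60.7% and 50.1%. The ratios are not corrected for this. SCD had 1.46 and 1.35 counts per FASN count after NRAS siRNA 1, 1.77 and 1.18 after NRAS siRNA 2, and 0.619 and 0.670 after the nonspecific siRNA. The knockdown libraries were all above the controls. The same ratio was 0.814 and 1.08 with the ERK inhibitor and 0.630 and 0.729 with DMSO. FADS2 had 0.940 and 0.900 counts per FADS1 count with the inhibitor and 0.565 and 0.509 with DMSO, which did not overlap. It had 0.630 and 0.551 after NRAS siRNA 1, 0.578 and 0.557 after NRAS siRNA 2, and 0.490 and 0.456 after the nonspecific siRNA. Summed over the 9 genes of synthesis, the ERK inhibitor libraries held 4184 and 3805 CPM and the DMSO libraries 3094 and 2923 CPM. The sums were 2908 and 2600 CPM after NRAS siRNA 1, 2572 and 2553 CPM after NRAS siRNA 2, and 3174 and 2737 CPM after the nonspecific siRNA, where groups overlapped for NRAS siRNA 1. The sums weight abundant genes most, and FASN and SCD make up much of them.

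**Figure D4:**
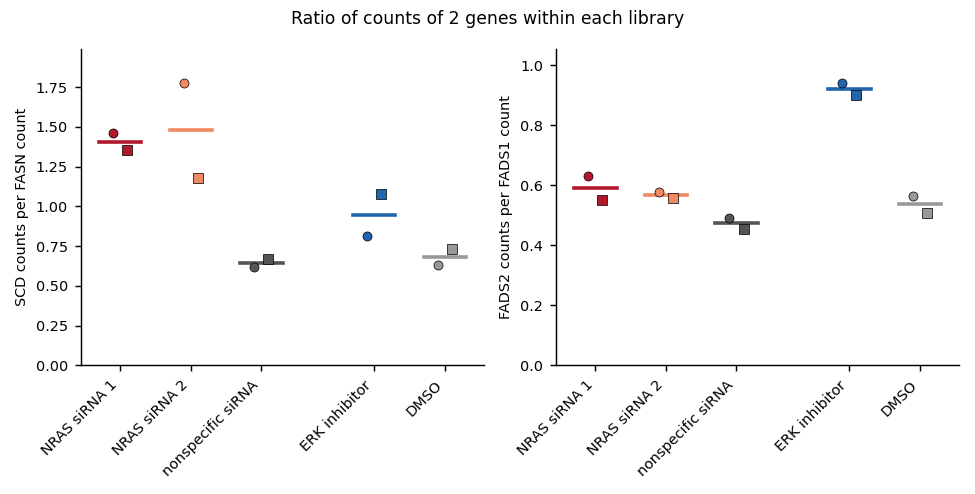
Counts of SCD per count of FASN (left) and of FADS2 per count of FADS1 (right) within each library, on axes from 0, by group, with circles for replicate 1, squares for replicate 2 and a line at the mean of 2. The SCD to FASN ratio is above 1 in all 4 NRAS siRNA libraries and 0.619 and 0.670 in the nonspecific siRNA libraries. The FADS2 to FADS1 ratio is highest with the ERK inhibitor, at 0.940 and 0.900. Neither ratio is corrected for GC content.

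Over the 10 libraries, on log2 CPM, SCD and FADS2 had a Pearson r of 0.96, ACACA and FADS2 of 0.93 and FADS1 and FADS2 of 0.93. LPL ran opposite to SCD (r = -0.91), and FASN and SCD had an r of 0.27. The genes most like each member among 13149 genes of at least 1 CPM on average were GPAA1 for FASN (r = 0.99), TNFRSF19 for FADS2 (r = 0.99), RIMS4 for SCD (r = 0.99), S100A3 for LPL (r = 0.99), ACAA1 for ACACA (r = 0.97) and TRIM16 for ME1 (r = 0.97). These are descriptions over 10 libraries that share 5 treatments, and the same treatments shape every pair.

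Regulators of the pathway came from lists chosen with earlier results of these data known. The counts below stand beside 13.2% of all tested genes higher and 14.8% lower with the ERK inhibitor, and 2.97% higher and 4.99% lower for the mean of both siRNAs. Of 7 genes that make or control SREBP, 3 rose with the ERK inhibitor. SREBF1 had 112 and 72.6 CPM with the inhibitor and 44.7 and 38.1 CPM with DMSO, 1.16 on the log2 scale (SE 0.18, edgeR adjusted p = 0.00148). SREBF1 transcripts are 64.7% GC, and the difference was 0.74 after GC correction (edgeR adjusted p = 0.000919). INSIG1, which holds SREBP in the endoplasmic reticulum and is itself an SREBP target, was at 0.73 (SE 0.19, edgeR adjusted p = 0.0185), and SREBF2 at 0.53 (SE 0.15, edgeR adjusted p = 0.0257). Leaving out DMSO replicate 2 gave 0.57 for INSIG1 and 0.46 for SREBF2, neither past the threshold (edgeR adjusted p = 0.133 and 0.149). The INSIG1 call was also lost without either ERK inhibitor library (0.73 and 0.72) and that of SREBF2 without ERK inhibitor replicate 1 (0.43). On the mean of both siRNAs 1 of the 7 rose, MBTPS1, a protease that releases SREBP, at 0.65 (SE 0.09, edgeR adjusted p = 0.00533). MBTPS1 had 232 ± 25.1 and 232 ± 12.1 CPM after NRAS siRNA 1 and 2 and 148 ± 14.7 CPM after the nonspecific siRNA. It was at 204 ± 7.47 CPM with DMSO and 227 ± 6.98 CPM with the inhibitor (SD, n = 2 each). The nonspecific siRNA level was thus the lowest of the 5 groups. SREBF1 was at -0.09 (SE 0.16) with the siRNAs. SCAP, the escort of SREBP, was at 0.03 with the siRNAs and 0.11 with the inhibitor, and none of these passed.

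Of 8 other regulators tested, 1 rose and 3 fell with the ERK inhibitor, and 2 fell with NRAS siRNA. After GC correction 1 rose and 5 fell with the inhibitor, and 1 fell with the siRNAs. In that model 1805 of 14030 genes were higher and 2818 lower with the inhibitor, and 622 higher and 779 lower with the siRNAs. PPARGC1B, a coactivator of SREBP in mouse liver, was lower in both arms, at -1.27 (SE 0.23, edgeR adjusted p = 0.00305) with the inhibitor and -0.92 (SE 0.18, edgeR adjusted p = 0.0184) with the siRNAs. MID1IP1, whose product promotes polymerisation of the ACACA enzyme, rose by 0.54 (SE 0.16, edgeR adjusted p = 0.0341) with the inhibitor, and was at -0.44 (SE 0.14, edgeR adjusted p = 0.0802) with the siRNAs. Without ERK inhibitor replicate 1 the MID1IP1 difference with the inhibitor was 0.28 (edgeR adjusted p = 0.299), and the call was also lost without DMSO replicate 1 (0.60) or replicate 2 (0.51). MLX fell by 0.51 and USF2 by 0.35 with the inhibitor. NR1H2, one of the liver X receptors, was at -0.47 (edgeR adjusted p = 0.0246) with the siRNAs and -0.29 after GC correction (edgeR adjusted p = 0.0561). It had 38.4 ± 0.705 and 34.8 ± 4.49 CPM after NRAS siRNA 1 and 2 (SD, n = 2 each). After the nonspecific siRNA it had 50.7 ± 3.41 CPM, the highest of the 5 groups, and with DMSO 39.0 ± 2.32 CPM.

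Of 8 genes that supply citrate and NADPH, 4 rose and 1 fell with the ERK inhibitor, and 1 rose with NRAS siRNA. IDH1, a cytosolic source of NADPH, had 209 and 226 CPM with the inhibitor and 147 and 143 CPM with DMSO, a difference of 0.59 (SE 0.13, edgeR adjusted p = 0.00828). With the siRNAs it was at 0.50 (SE 0.11, edgeR adjusted p = 0.0289). The citrate carrier SLC25A1 at 0.62 and PGLS of the pentose phosphate pathway at 0.58 were among those called with the inhibitor. Their transcripts are 65.6% and 66.0% GC, and after correction they were at 0.19 and 0.12 and neither passed (edgeR adjusted p = 0.257 and 0.463). MTHFD1 of folate metabolism fell by 0.67. Of 14 tested genes of other elongation and desaturation steps, 1 rose and 3 fell with the inhibitor and 1 fell with the siRNAs, among them TECR, the last enzyme of the elongation cycle, at -0.42 and -0.34. The called genes were 28.6% of the list with the inhibitor and 7.14% with the siRNAs, close to the 28% and 7.95% of all genes called. The TECR difference with the siRNAs was -0.21 after GC correction (edgeR adjusted p = 0.113).

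The cholesterol pathway, which SREBP factors also drive, had 14 of 21 genes higher with the ERK inhibitor, against 13.2% of all genes. In the GC-corrected model the number was the same, against 1805 of 14030 genes higher. The median log2 difference of the 21 was 0.58. HMGCS1 had 241 and 273 CPM with the inhibitor and 127 and 107 CPM with DMSO, at 1.14 (SE 0.12, edgeR adjusted p = 0.000139). LSS was at 0.83, MVD at 1.15 (0.71 after GC correction) and TM7SF2 at 1.95. With NRAS siRNA 3 of the 21 rose, among them TM7SF2 at 1.06 and HMGCS1 at 0.42, and 1 fell; HMGCS1 was at 0.32 after GC correction (edgeR adjusted p = 0.0714).

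**Figure D5:**
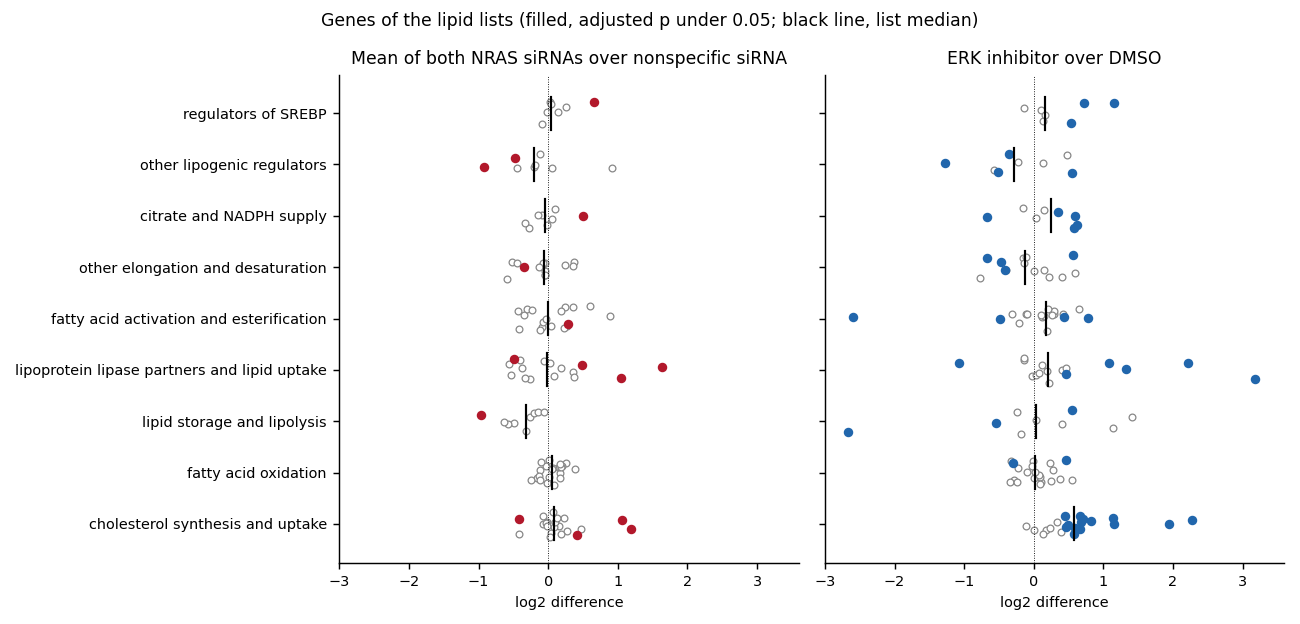
Log2 differences (horizontal axis) of the tested genes of 9 lipid lists (rows), for the mean of both NRAS siRNAs on the left and the ERK inhibitor on the right; filled points passed an adjusted p of 0.05 and the black line is the median of a list. The cholesterol row on the right has 14 filled points, all above 0, and a median of 0.58.

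Around LPL, 16 of 25 listed partners and genes of lipid uptake were tested. With the ERK inhibitor 5 rose and 1 fell. The fatty acid carrier FABP3 had 21.3 and 25.5 CPM with the inhibitor and 2.73 and 2.43 CPM with DMSO, at 3.18 (SE 0.24, edgeR adjusted p = 1.94e-05). APOE, the apolipoprotein, was at 2.21 (SE 0.20) and the lipoprotein receptor LRP1 at 1.07 (SE 0.16). LIPG, the endothelial lipase and a relative of LPL, was at 33.5 ± 1.44 CPM with the inhibitor and 70.2 ± 0.592 CPM with DMSO (SD, n = 2 each), a fall of 1.07 on the log2 scale (edgeR adjusted p = 0.000236). CD36, a fatty acid receptor, rose in both arms, at 1.32 (SE 0.27) with the inhibitor and 1.63 (SE 0.28) with the siRNAs. It stayed at low levels, with 43 and 51 counts in the inhibitor libraries and 16 and 17 in the DMSO libraries. After NRAS siRNA 1 and 2 CD36 was at 0.980 ± 0.0923 and 1.13 ± 0.145 CPM (SD, n = 2 each). After the nonspecific siRNA it was at 0.339 ± 0.0468 CPM, the lowest of the 5 groups, and with DMSO at 0.675 ± 0.0417 CPM. Without nonspecific siRNA replicate 1 the siRNA difference was 1.79, and without its replicate 2 it was 1.49.

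With NRAS siRNA, 3 genes of the list rose and 1 fell. FABP3 was at 1.04 (SE 0.22, edgeR adjusted p = 0.0243). SEL1L, which helps LPL leave the endoplasmic reticulum, was at 0.48 (SE 0.11), and FURIN, a protease that cleaves LPL, at -0.49 (SE 0.09). FURIN had 106 and 127 CPM on average after NRAS siRNA 1 and 2, 163 CPM after the nonspecific siRNA and 135 CPM with DMSO. SEL1L had 157 and 160 CPM after the NRAS siRNAs, 113 CPM after the nonspecific siRNA and 128 CPM with DMSO. The nonspecific siRNA level was thus the highest of the 5 groups for FURIN and the lowest for SEL1L. FURIN transcripts are 61.7% GC, in a class with a median of -0.17 for the siRNAs. Among partners named here for their roles after their values were seen, LMF1, needed for LPL to fold, was at -0.27 with the siRNAs and -0.02 with the inhibitor, and ANGPTL4, an inhibitor of LPL, at -0.54 and 0.04; neither passed. GPIHBP1, the capillary carrier of LPL, had 0 counts in 9 libraries and 1 count in the other. APOC2, the cofactor of LPL, had 0 counts in all 10, which allows up to 0.0975 to 0.129 CPM per library, counting error only.

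The named genes of these lists rest unevenly on single libraries. Of 35 called with the ERK inhibitor, 17 held in each of the 10 fits without 1 library, among them SREBF1, PPARGC1B, MTHFD1, AGPAT9, LPIN2, FABP3, APOE, CD36, LRP1, LIPG, MGLL, PLIN2, TM7SF2, MVD, HMGCS1 and LSS. Without DMSO replicate 2, and likewise without ERK inhibitor replicate 1, 17 of the 35 lost the call. Of 15 called for the mean of both siRNAs, MBTPS1 and MGLL held in all 10 fits. Without nonspecific siRNA replicate 1, 13 of the 15 lost the call, and without its replicate 2, 10 did.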

How the data were processed

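RNA from RD cells was made into stranded mRNA libraries, per the labels' protocols, 2 for each of 5 groups taken from the sample titles. The values deposited by the authors are whole-number read counts per gene, not normalised. Among tools, bcl2fastq, HTSeq, SAMtools and TopHat2 are listed per the submitters' processing notes, without versions, with the builds hg19 and GRCh37. Which annotation and strand mode the counting used is not given in the sources used here. Reads with more than 1 alignment (27.0 to 28.9% of a library) and reads of overlapping genes (0.591 to 0.649%) are outside the gene counts, which lowers genes with near-identical copies, such as SCD with its pseudogene. All lines that name no gene, 38.3 to 39.4% of reads, were left out. The deposited files of the 10 libraries were identical to the columns of the series table, and replicates differed by more than sampling noise.

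All 10 libraries entered 1 edgeR 4.0.16 quasi-likelihood fit (R 4.3.3) with TMM scaling (0.968 to 1.03), filterByExpr at a minimum count of 10 and no covariate, leaving 5 residual degrees of freedom. P-values were adjusted by Benjamini-Hochberg over 14761 genes for each of 7 comparisons, with a threshold of 0.05. The model was tested on simulated data. Levels per kilobase used the longest principal transcript in GENCODE 29, and GC content the longest coding transcript, matched for 14030 tested genes (95.0%). Likeness is Pearson's r of log2 CPM with a prior count of 2. The members, lists, tests and alternatives were chosen with earlier results of these data known. Besides the members, NRAS, 3 ERK target genes and 5 regulators were taken by name, and from each of 9 lists up to 5 genes with the largest differences among those called that reach 1 CPM; some of these are counted but not reported by name here. Alternatives were RLE and upper-quartile factors, no filter, a replicate block, only the groups compared, DESeq2 1.42.0, leaving out each library and, added after seeing the data, offsets for GC content.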

Additional observations from a re-analysis of the deposited data

How the results depend on the processing

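With the ERK inhibitor, 5 or 6 members passed under each alternative. For the mean of both NRAS siRNAs the 2 members became 4 with the replicate block, 4 after GC correction, 3 in DESeq2 and 0 to 2 with 1 library left out. For NRAS siRNA 1 the 1 member became 2 with RLE factors, 3 without a filter, 4 with the replicate block, 0 with only the groups compared, 3 in DESeq2, 4 after GC correction, and 0 to 2 with 1 library left out. For NRAS siRNA 2 the 2 members became 3 with the replicate block (with ME1, 0.34, edgeR adjusted p = 0.0228), 1 with only the groups compared and 0 to 2 with 1 library left out. For the difference between the arms the 2 members became 4 with the replicate block, 3 without a filter, 3 in DESeq2, 1 after GC correction and 0 to 3 with 1 library left out. Calls over all genes moved as well. For the mean of both siRNAs 9.99% were called after GC correction and 11.1% in DESeq2, against 7.95%. For NRAS siRNA 1, 2.03% were called with RLE factors, 3.88% without a filter and 3.66% after GC correction. For the difference between the arms the shares were 7.9% without a filter, 10.1% in DESeq2 and 6.24% after GC correction. With the ERK inhibitor 38.3% were called with the replicate block and 33.0% after GC correction. No called difference changed sign under any alternative. The interaction uses all groups, so it was not refitted on fewer.

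Replicate numbers are not said to mark a shared culture or day, and deviations of same-numbered libraries correlated at 0.074 to 0.448 between groups, so the pairing is not established. With the replicate block, ACACA (0.25, adjusted p = 0.0237) and SCD (0.24, adjusted p = 0.0289) also passed for the mean of both siRNAs, as edgeR adjusts them, and 19.3% of all genes were called against 7.95%. The block gave 8.67% for NRAS siRNA 1, 19.1% for NRAS siRNA 2 and 16.1% for the difference between the arms. With only the groups compared, 2.93% were called for the mean of both siRNAs, 0.315% for NRAS siRNA 1 and 1.57% for NRAS siRNA 2, while DESeq2 called 5.02% for NRAS siRNA 1 and 10.5% for NRAS siRNA 2. With 1 library left out, 0.87 to 9.91% were called for the mean of both siRNAs and 12.5 to 29.2% with the ERK inhibitor.

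With 2 libraries a group, small differences of the members stay undetected. No scaling moved the median of all genes by more than 0.1 (log2).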

Other observations

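Values of genes of fat storage and breakdown are given here. MGLL, which completes the breakdown of triglycerides, had 18.6 and 16.9 CPM with the ERK inhibitor and 107 and 119.7 CPM with DMSO, -2.68 on the log2 scale (SE 0.13, edgeR adjusted p = 1.81e-06). It had 48.6 and 54.8 CPM after NRAS siRNA 1, 58.9 and 71.1 CPM after NRAS siRNA 2, and 117 and 108 CPM after the nonspecific siRNA, a mean difference of -0.96 (SE 0.10, edgeR adjusted p = 0.00142). Neither pair of groups overlapped. Of 9 storage and lipolysis genes tested, 1 rose and 2 fell with the inhibitor and 1 fell with the siRNAs. The lipid droplet coat gene PLIN2 was at -0.54 with the inhibitor, and the lipase gene PNPLA2 at 0.54, or 0.13 and not called after GC correction; without ERK inhibitor replicate 1 it was 0.27 (edgeR adjusted p = 0.285).

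Of 18 genes that activate and esterify fatty acids, 2 rose and 2 fell with the ERK inhibitor, 22.2% of the list against 28% of all genes tested. AGPAT9, an acyltransferase of glycerolipid synthesis, was at 9.49 ± 0.300 CPM with the inhibitor and 57.3 ± 17.7 CPM with DMSO (SD, n = 2 each), a difference of -2.59 (SE 0.30, edgeR adjusted p = 0.000250). LPIN2, a phosphatidate phosphatase, was at 0.78 (SE 0.08) with the inhibitor and 0.28 (SE 0.07) with the siRNAs. Of 21 fatty acid oxidation genes, edgeR called 1 higher (ETFB, 0.47) and 1 lower (ETFA, -0.30) with the inhibitor. With the siRNAs it called 0, against 7.95% of all genes, with 4 at an unadjusted p under 0.05 and 0 in DESeq2. No share of all genes is given for the unadjusted rule, so these 4 cannot be set against one.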
